A study of Mus musculus with 2 samples.

Results

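The cells described here are γδT17-like cells of a healing mouse skin wound, taken from 2 single-cell RNA libraries by a gate on marker genes. The mice were male C57BL/6J of wild type genotype. Each received a circular wound of 1.8 cm across on the back, which was sprayed on days 0, 3 and 6 with PBS (library WT_LW) or with ODN2395, a CpG oligonucleotide agonist of the DNA-sensing receptor TLR9 (library TLR9agonist_LW). Skin of the wound centre was collected 2 days after scab detachment, and cells of several mice were pooled into each library. There was 1 library per group, so no test between the groups was possible and the effect of the treatment cannot be told apart from a difference between the 2 libraries. Intervals given below are exact 95% intervals and cover counting error only.

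Cells were kept if they held at least 500 UMIs (unique molecules counted), at least 300 genes and at most 15% of UMIs on mitochondrial genes, which left 11443 cells of WT_LW and 13206 of TLR9agonist_LW. Cells were chosen by measured UMIs of these genes: a gated cell held at least 2 UMIs of Cd3d, Cd3e and Cd3g together, at least 2 of Cd163l1, Blk and Sox13 together, none of Cd4, Cd8a, Cd8b1 or Foxp3, and at most 2 of Mki67 and Top2a together. This gave 490 cells in WT_LW and 1682 in TLR9agonist_LW, 2172 of 24649 cells in all. Their median depth was 4126 and 4617 UMIs, and together they held 2402329 and 11044773 UMIs. The libraries shared 47 barcodes. After the filter 39 of these remained in each library, of which 0 and 4 were gated and none in both.

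γδ T cells that make IL-17 are innate-like lymphocytes which settle in skin and other barrier tissues early in life. They carry the IL-23 receptor and the IL-1 receptor, depend on the transcription factors Maf and Sox13, and can release IL-17A and IL-17F quickly without prior priming. IL-17A acts on keratinocytes and fibroblasts and draws in neutrophils, and the EGF receptor ligand amphiregulin (Areg), which T cells can also release, is known for its part in tissue repair.

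The Il17a and Il17f genes lie next to each other on chromosome 1 and are shown with Areg because the results below turn on these genes. The sequences are the 250 bases before the RefSeq start of each gene in build GRCm38.p6, written 5′ to 3′ on the strand of the gene. Capitals mark matches, on either strand, to motifs picked after these promoters had been read. The motif of AP-1 factors was searched in a loose form, TGANTCA, with any base (N) in the middle. The cAMP response element was searched as TGACGTCA. None of these matches overlapped another.
Il17a, chr1:20730655-20730904, plus strand: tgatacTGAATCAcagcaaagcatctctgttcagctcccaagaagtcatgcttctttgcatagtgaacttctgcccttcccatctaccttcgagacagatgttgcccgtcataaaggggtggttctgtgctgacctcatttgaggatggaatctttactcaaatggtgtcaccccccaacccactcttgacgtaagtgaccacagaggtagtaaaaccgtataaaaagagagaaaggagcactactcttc
Il17f, chr1:20784271-20784520, minus strand: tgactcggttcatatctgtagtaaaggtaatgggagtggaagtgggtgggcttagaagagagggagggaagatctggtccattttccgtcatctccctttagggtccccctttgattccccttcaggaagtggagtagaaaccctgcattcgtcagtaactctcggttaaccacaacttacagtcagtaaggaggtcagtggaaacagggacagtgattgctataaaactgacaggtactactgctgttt
Areg, chr5:91139349-91139598, plus strand: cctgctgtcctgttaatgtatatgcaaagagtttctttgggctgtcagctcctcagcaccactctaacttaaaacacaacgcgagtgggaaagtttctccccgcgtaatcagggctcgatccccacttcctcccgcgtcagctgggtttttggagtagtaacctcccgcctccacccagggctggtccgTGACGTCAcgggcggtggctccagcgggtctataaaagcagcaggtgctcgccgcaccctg

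A match to TGANTCA, reading TGAATCA, began 244 bases before the start of Il17a. Matches to this loose pattern were found in 6.75% of 32851 promoters of the same length. The response element began 61 bases before the start of Areg and was found in 1.55% of them. The window of Il17f held neither run of letters. Of the type 17 cytokine list, 2 of 15 promoters held a match to TGANTCA, those of Il17a and Lif.

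The gated cells made up 4.28% (3.92 to 4.67) of the cells kept in WT_LW and 12.7% (12.2 to 13.3) in TLR9agonist_LW. Among cells with Cd3 UMIs the shares were 12.2% (11.2 to 13.3) and 38.3% (36.9 to 39.8), a log2 ratio of 1.65 (1.50 to 1.80). The size of this difference depended on the depth at which the gate was set. When every cell was thinned to 1500 UMIs before gating, 347 and 691 cells passed and the log2 ratio was 0.89 (0.70 to 1.08) among Cd3 cells and 0.76 (0.58 to 0.96) among all cells of that depth. The gate's own markers stood at lower levels in TLR9agonist_LW, and their part in the share was not tested. In CPM (UMIs of a gene per 1000000 UMIs), Cd163l1 was at 1164 and 579 CPM in WT_LW and TLR9agonist_LW, Blk at 421 and 181 CPM and Sox13 at 75.3 and 39.3 CPM.

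**Figure D1:**
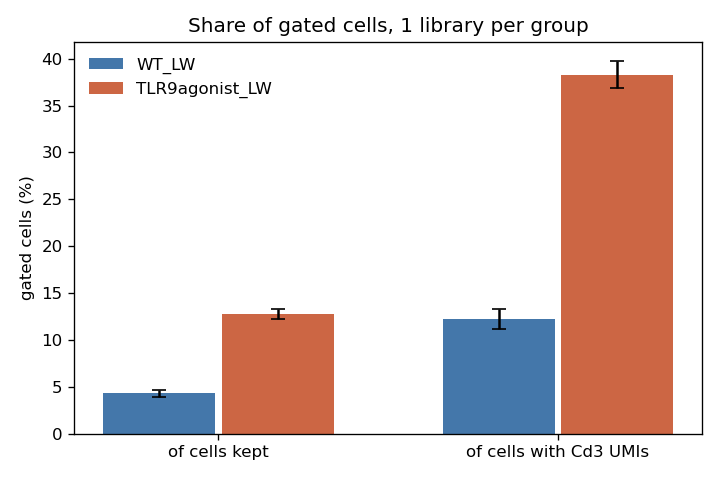
Share of gated cells in percent (bars) among all cells kept and among cells with at least 2 Cd3 UMIs, for WT_LW and TLR9agonist_LW, with exact 95% intervals as error bars. The bars stand at 4.28% and 12.7% of cells kept and at 12.2% and 38.3% of Cd3 cells.

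Cd163l1, a scavenger receptor of γδ T cells, was detected in 96.5% and 94.9% of gated cells, Blk, a Src family kinase, in 80.8% and 63.9%, and Sox13 in 29.4% and 20.5%. These genes chose the cells, and their levels are given as a description. At the edge of the rule, 32 cells of WT_LW and 284 of TLR9agonist_LW had a marker sum of exactly 2, and 83 and 290 cells that met the other criteria had a sum of 1. The cells just inside held Il17a at 621 and 7097 CPM and the cells just outside at 158 and 3904 CPM. Cells with no marker UMI that met the other criteria, 919 and 866 in number, still held Il17a at 70.4 and 1541 CPM.

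The label was checked against type 17 genes that the rule did not use. Il17a was detected, with every cell thinned to 1500 UMIs, in 43.4% (38.9 to 48) and 76.1% (73.9 to 78.1) of gated cells of WT_LW and TLR9agonist_LW (unthinned 57.3% and 87.5%). In CD4 cells, which had at least 2 Cd3 UMIs, at least 1 of Cd4 and none of Cd8a, Cd8b1, Foxp3, Cd163l1, Blk or Sox13, the shares were 9.38% (7.69 to 11.3) and 22.9% (19.7 to 26.2), and in fibroblasts, which should lack the gene, 0.562% (0.257 to 1.06) and 5.28% (4.55 to 6.07). Median depths were 4126 and 4617 UMIs in gated cells, 4611 and 5144 in CD4 cells and 8526 and 10794 in fibroblasts. The fibroblast shares are read as background, and they were higher in TLR9agonist_LW.
Il23r, the receptor subunit for IL-23, was found in 9.19% (6.75 to 12.1) and 11.9% (10.4 to 13.5) of gated cells against 0.948% (0.455 to 1.74) and 3.59% (2.31 to 5.29) of CD4 cells. In fibroblasts the shares were 0.0624% (0.00158 to 0.347) and 0.058% (0.00702 to 0.209). Maf was found in 67.4% (63 to 71.6) and 63% (60.7 to 65.4) of gated cells, but also in 22.1% (20.1 to 24.2) and 27.2% (25.7 to 28.7) of fibroblasts.

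**Figure D2:**
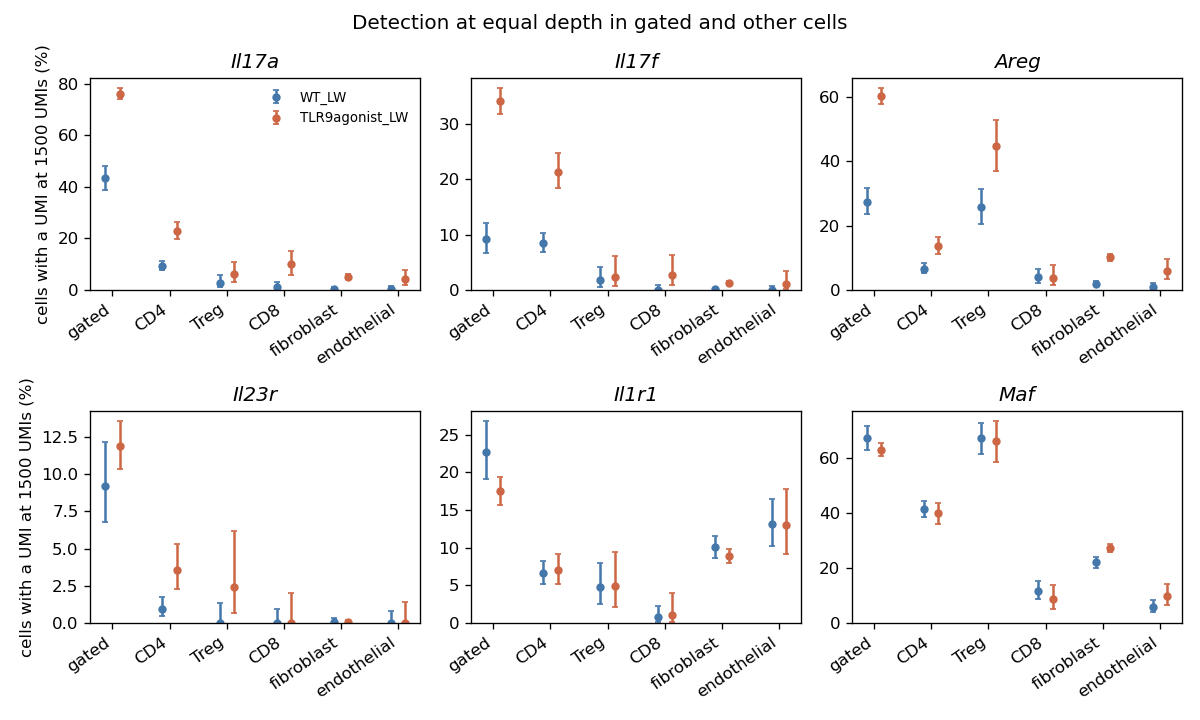
Percent of cells with a UMI of 6 type 17 and repair genes after thinning each cell to 1500 UMIs, in gated cells and in CD4, Treg, CD8, fibroblast and endothelial gates of WT_LW and TLR9agonist_LW, with exact 95% intervals. Il17a stands at 43.4% and 76.1% in gated cells, above the other 5 gates in each library.

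In this comparison "other T cells" means the CD4, Treg and CD8 gates together. Cd3 cells with marker UMIs, or without Cd4, Cd8a, Cd8b1 and Foxp3 UMIs, are not among them. All Cd3 cells outside the gated set held 3790 Il17a UMIs of 25143087 in WT_LW and 29788 of 23221528 in TLR9agonist_LW. The multiples below therefore do not hold against all of those cells. The 15 genes that led the gated cells over other T cells in both libraries were Zbtb16, Tdrd9, Clnk, Cdh10, Ccdc189, Npnt, Zbtb7c, Cryba4, Mtcl1, Coro2b, Bcl2a1a, St3gal3, Il17a, Prelid2 and Kcnk1. Zbtb16 encodes PLZF, a transcription factor of innate-like T cells, and was at 134 CPM in gated cells against 1.01 in other T cells of WT_LW, and at 112 against 1.33 in TLR9agonist_LW. Il17a was 8.63 times as high as in other T cells in WT_LW and 16.8 times in TLR9agonist_LW. Il23r was 8.74 and 4.30 times as high and Areg 5.94 and 9.17 times. Il17f was at 1.43 times the level of other T cells in WT_LW and at 4.98 times in TLR9agonist_LW.
Of the genes by which such cells are often sorted, Cd44, an adhesion receptor of activated cells, was 1.61 and 1.99 times as high as in other T cells, and Cd27, a costimulatory receptor of interferon-producing γδ T cells, was at 0.0895 and 0.0379 times. Il7r, the receptor for a survival cytokine, stood at 1.32 and 0.991 times. Cd7 was at 1.24 and 0.975 times. Ccr2, a receptor that guides cells to inflamed tissue, was 2.67 and 1.36 times as high, whereas Ccr6, often carried by type 17 cells, was below other T cells at 0.450 and 0.248 times. UMIs of both Ccr2 and Ccr6 were held by 1.25% and 0.597% of thinned gated cells. Ccr6 was rare in any case, in 2.11% and 1.04% of cells with Ccr2 and 3.61% and 0.978% of cells without it.

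Between the libraries, gene levels in the gated cells were compared as the log2 ratio of CPM, TLR9agonist_LW over WT_LW, relative to the median gene. The median gene had a log2 ratio of -0.29, so a gene at an equal CPM in both libraries lies at about +0.29 on this scale. Of 10286 genes with at least 50 UMIs, 1150 were 2-fold or more above the median gene and 766 were 2-fold or more below it. Below, "higher" and "lower" in counts mean past that 2-fold line, and the libraries give no test. The background for every such count is the share of all genes, 11.2% higher and 7.45% lower.

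Of 12 list members with enough UMIs, 5 were higher (Il17a, Il17f, Il22, Csf2 and Lif) and 1 was lower (Ifng), against 11.2% of all genes higher and 7.45% lower. Il17a was at 1034 CPM (993 to 1075) in WT_LW against 6728 CPM (6679 to 6776) in TLR9agonist_LW, which gave a log2 ratio of 3.00 (2.94 to 3.05). Il17f, which pairs with IL-17A in a heterodimer, was at 145 CPM (130.0 to 161) in WT_LW against 1682 CPM (1658 to 1706) in TLR9agonist_LW, which gave a log2 ratio of 3.83 (3.68 to 3.99). In CD4 cells of the same libraries the ratios were 1.96 for Il17a and 1.96 for Il17f.
Il22, which acts on epithelial cells, had 4 UMIs in WT_LW against 877 in TLR9agonist_LW, which put its ratio at 5.87 (4.51 to 7.75). Of the latter, the cell with most held 127, and 94.6% of cells had none. Csf2, which encodes the growth factor GM-CSF, was at 20 and 124 CPM, a ratio of 2.93 (2.51 to 3.37). Lif had 4 and 157 UMIs. Ltb, Tnf and Tgfb1 were within 2-fold of the median gene, with ratios of 0.80, 0.19 and 0.36. Ltb passed 2-fold, at 1.03, without predicted doublets and, at 1.09, without cells holding RNA of other types. Ifng, the type 1 cytokine, had 32 and 40 UMIs and a ratio of -1.58 (-2.29 to -0.87). Il21, Il2, Il4 and Il13 were too low to be counted.

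Il17a levels were uneven between cells, and the top 10% of cells held 53.4% of the Il17a UMIs in WT_LW and 50.3% in TLR9agonist_LW. In WT_LW 42.7% of gated cells had no Il17a UMI and the median cell had 1, and in TLR9agonist_LW 12.5% had none and the median cell had 15. Cells with at least 10 Il17a UMIs made up 17.6% of the gate in WT_LW and 58.1% in TLR9agonist_LW. Cells with and without Blk UMIs both held Il17a, at 1093 and 787 CPM in WT_LW and at 6412 and 7296 CPM in TLR9agonist_LW. Il17f was absent from 86.7% and 54.7% of cells. Among cells thinned to 1500 UMIs, both genes were found together in 6.68% and 29.2% of cells, and Il17f without Il17a in 1.25% and 4.18%.
Of all Il17a UMIs in the kept cells, the gated cells held 37.2% in WT_LW and 68.6% in TLR9agonist_LW. For Il17f these shares were 10.7% and 56.8%, for Il23r 39.4% and 59.3%, and for all genes together 2.49% and 8.43%.

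**Figure D3:**
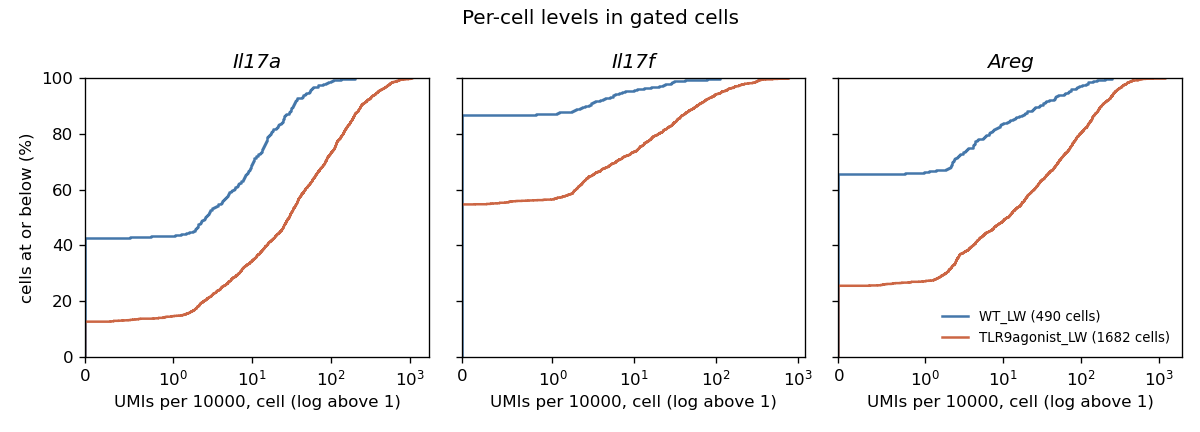
Cumulative share of gated cells (vertical axis, percent) at or below a given level of Il17a, Il17f and Areg (horizontal axis, UMIs per 10000, logarithmic above 1), for 490 cells of WT_LW and 1682 of TLR9agonist_LW. The curves start at the share of cells with no UMI, 42.7% and 12.5% for Il17a.

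Areg had the highest CPM of the growth factor list in TLR9agonist_LW. It was at 963 CPM (924 to 1003) in WT_LW against 4773 CPM (4732 to 4814) in TLR9agonist_LW, which gave a log2 ratio of 2.60 (2.54 to 2.66), and 1.90 in CD4 cells. The share of gated cells without an Areg UMI was 65.7% and 25.4%, and in thinned cells Areg was found in 27.6% (23.6 to 31.8) and 60.4% (58 to 62.7) of gated cells, 25.7% (20.6 to 31.4) and 44.8% (37 to 52.8) of Treg cells and 2% (1.37 to 2.81) and 10.2% (9.18 to 11.2) of fibroblasts. Il17a and Areg were detected in the same thinned cell in 14.0% and 49.7% of the gate. In TLR9agonist_LW, Areg was found in 66.1% of cells with Il17a and in 50.8% of cells without it. The gated cells accounted for 21.3% (WT_LW) and 55.3% (TLR9agonist_LW) of all Areg UMIs.

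Of 12 counted growth factors 8 were higher and none was lower, with a median ratio of 1.74 against 0 for all genes. The median of this list was 1.10 in CD4, 0.96 in Treg and -0.12 in CD8 cells. Besides Areg the higher genes were the EGF family ligands Ereg, Tgfa, Epgn and Nrg1, and Fgf7, Igf1 and Penk, the last a precursor of opioid peptides. All 7 besides Areg stood at a higher CPM in fibroblasts than in gated cells of the same library. Epgn was at 2.91 and 22.5 CPM in gated cells and 9.12 and 61.9 CPM in fibroblasts, Penk at 3.33 and 21.2 CPM and 22.9 and 86 CPM, and Igf1 at 45.4 and 122 CPM and 325 and 444 CPM. Predicted doublets, and cells with over 1% of UMIs on markers of keratinocytes, fibroblasts or myeloid cells, were then left out together. The log2 ratio of Igf1 was now 0.59, the log2 ratio of Penk 1.25 and the log2 ratio of Epgn 1.72. The log2 ratio of Areg was 2.93 and the log2 ratio of Il17a 3.36. Hbegf, Vegfa and Furin were within 2-fold of the median gene. Fgf9, a factor of hair follicle formation, had 1 and 9 UMIs.

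RNA of other cell types differed between the gates. Keratinocyte markers took 0.237% of all gated UMIs in WT_LW and 1.26% in TLR9agonist_LW, with a median per cell of 0.0909% and 0.609%, and all 12 of these markers were detected in both. The 12 include S100a8 and S100a9, and all were higher, with a median ratio of 2.79 in the gate and 1.93 in CD4 cells. Fibroblast markers took 0.660% and 2.00%, myeloid markers 0.570% and 0.279%, and mast cell markers 0.096% and 0.016%. Predicted doublets made up 8.16% of gated cells in WT_LW and 14.0% in TLR9agonist_LW. Among all cells kept they made up 9.16% and 10.6%, shares set in advance from the number of cells. The part of these differences in the ratios was not tested beyond the values given without such cells.

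Receptors for cytokines differed in both directions. Of 26 counted, 6 were higher (Il1r2, Il1rl1, Il2ra, Il2rb, Il15ra and Il21r) and 4 were lower (Il12rb1, Il18r1, Il17re and Ifngr1). These shares were 23.1% and 15.4%, against 11.2% and 7.45% of all genes. Il2ra, the high-affinity IL-2 receptor chain, was at 297 and 668 CPM, a ratio of 1.47 (1.35 to 1.58), and Il21r at 63.7 and 147 CPM, a ratio of 1.50 (1.26 to 1.75). Il18r1, a receptor chain for IL-18, was at 298 and 96.3 CPM, a ratio of -1.34 (-1.47 to -1.20), and was at 0.32 in CD4 cells. Il12rb1, shared by the IL-12 and IL-23 receptors, was at 38.7 and 8.51 CPM. Il23r had a ratio of 0.54 (0.28 to 0.81), Il7r one of 0.00 (-0.07 to 0.07) and Il1r1 one of -0.41 (-0.58 to -0.24). These receptors, known for such cells, were within 2-fold of the median gene. In gated cells of 1500 to 5000 UMIs their ratios were 0.97, 0.29 and 0.09, still within 2-fold.

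Homing receptors gave 3 higher of 20 (Ccr1, Ccr4 and Ccr7) and 7 lower (S1pr4, Selplg, Itgae, Itgb7, Itga4, Itgal and Ltb4r1). These shares were 15% and 35%, against 11.2% and 7.45% of all genes. The log2 ratio of Ccr7 was 0.25 when cells were thinned before gating and 0.13 in gated cells of 1500 to 5000 UMIs, so its call was lost in both. The call of Selplg was lost in most settings. Its log2 ratio was -0.94 without predicted doublets, -0.87 without cells holding RNA of other types and -0.97 with a marker sum of at least 1. When cells were thinned before gating it was -0.85, and in gated cells of 1500 to 5000 UMIs -0.77. It was also within 2-fold when each gated cell had equal weight. Ccr2 was at 723 CPM (689.8 to 758) in WT_LW against 604 CPM (589 to 618) in TLR9agonist_LW, a ratio of 0.03 (-0.04 to 0.11). The ratio of Ccr2 was 0.29 without predicted doublets and 0.34 without cells holding RNA of other types. It was 0.30 when cells were thinned before gating, so it stayed within 2-fold but above that interval. Ccr6 had 33 and 64 UMIs and a ratio of -0.95 (-1.58 to -0.30). Cxcr6, a receptor of tissue-resident cells, was at 958 and 1209 CPM, a ratio of 0.63 (0.57 to 0.69). Itgb7 and Itgae, which together form an integrin that binds E-cadherin, had ratios of -1.48 and -1.01.

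Among 24 transcription factors 6 were higher (Rora, Id3, Batf, Irf4, Stat3 and Hif1a) and 2 were lower (Tcf7 and Bcl11b). These shares were 25% and 8.33%, against 11.2% and 7.45% of all genes. The log2 ratio of Id3 was 0.95 without predicted doublets and 0.57 when cells were thinned before gating, where the log2 ratio of Tcf7 was -0.50. Without centring on the median gene the log2 ratio of Rora was 0.80. Maf, on which type 17 γδ T cells depend, was at 867 and 831 CPM, a ratio of 0.23 (0.16 to 0.30). Batf, an AP-1 family factor, was at 51.2 and 183 CPM, a ratio of 2.13 (1.87 to 2.41), Irf4 at 44.5 and 143 CPM and Stat3, which carries IL-23 and IL-6 signals, at 251 and 581 CPM. In CD4 cells the ratios were 0.51 for Batf, -0.42 for Irf4 and 0.95 for Stat3. Of 25 counted genes listed as features of γδT17 cells, none was higher and 6 were lower, namely Il17re, Ltb4r1, Kcnk1, Actn2, Il18r1 and S100a4.

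Tnfrsf9, the costimulatory receptor 4-1BB, was at 65.4 CPM (55.5 to 76.4) in WT_LW against 701 CPM (685 to 717) in TLR9agonist_LW, a ratio of 3.72 (3.49 to 3.95), and 1.56 in CD4 cells. Of 12 counted checkpoint and costimulatory genes, Tnfrsf9, Havcr2 and Tnfrsf4 were higher and none was lower, and Pdcd1, which encodes PD-1, had a ratio of 0.91 (0.80 to 1.03). Pdcd1 passed 2-fold in some settings. It was at 1.14 without predicted doublets, 1.17 without cells holding RNA of other types and 1.10 with a marker sum of at least 1. Of 11 survival genes 5 were higher (Bcl2l1, Bcl2a1a, Bcl2a1b, Bcl2a1d and Fas) and Bcl2 was lower. Bcl2, which holds back cell death, was at 42.9 and 8.69 CPM, a ratio of -2.01 (-2.42 to -1.59), and -2.15 in CD4 cells. The 3 Bcl2a1 genes are near-identical copies, and how reads were split between them is uncertain.

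Cytotoxic genes also differed both ways, with 6 of 11 higher and 3 lower. These shares were 54.5% and 27.3%, against 11.2% and 7.45% of all genes. The median ratio of the list was 1.44 in the gate and -0.13 in CD4 cells. In gated cells with a marker sum of at least 3 it was -0.022. Gzmb, a granule protease, was at 134 CPM (120.2 to 149.9) in WT_LW against 604 CPM (589.9 to 619) in TLR9agonist_LW, a ratio of 2.46 (2.30 to 2.63), and Gzmc at 12.1 and 152 CPM. Klrc1, an inhibitory receptor of the natural killer family, was at 45 and 165 CPM, a ratio of 2.17 (1.89 to 2.47). Nkg7, Ctsw and Klrd1 were lower, at -1.57, -1.15 and -1.83. Xcl1, at 17 and 307 UMIs, changed sign when the marker sum had to be 3 or more, or when cells were limited to 1500 to 5000 UMIs.

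Of 18 counted glycolysis genes 9 were higher and none was lower, with a median ratio of 1.04, among them Slc16a3, a lactate exporter, at 18.7 and 112 CPM. The median of this list was 0.95 in CD4, 0.79 in Treg and 0.52 in CD8 cells, so it was above 0 outside the gate too. The heat shock list had 7 of 10 higher. Hspa1a was at 1064 and 3461 CPM, a ratio of 1.99 (1.94 to 2.05) in the gate and 1.52 in CD4 cells, so it differed in the same direction outside the gate. Early response genes, which tissue dissociation is known to induce, had 1 of 24 higher (Nfkbia) and 2 lower (Fos and Fosb). These shares were 4.17% and 8.33%, against 11.2% and 7.45% of all genes. Fosb was at 1564 and 284 CPM, a ratio of -2.17 (-2.24 to -2.10), and -1.68 in CD4 cells. Of 18 counted type I interferon response genes, 2 were higher (Ifit3 and Rsad2), or 11.1% against 11.2% of all genes. The ratio of Rsad2, 11 and 122 UMIs, was negative in cells of 1500 to 5000 UMIs. Of 21 counted cell cycle genes, a list without Mki67 and Top2a, none was higher. Mcm6 was lower, or 4.76% against 7.45% of all genes. The gate left out cells with more than 2 UMIs of Mki67 and Top2a, so this count cannot show whether cycling differed. Of 16 genes of lipid handling 4 were higher and none was lower, among them Fabp5, a fatty acid carrier that keratinocytes also express, at 931 and 2801 CPM. The top 10% of cells held 76.0% and 69.4% of the Fabp5 UMIs, and 26.7% and 0.119% of cells had none. With a marker sum of at least 1 the log2 ratio of Fabp5 was 0.49, and it was 2.36 without doublets and cells with other RNA.
Of 18 counted genes of T cell receptor signalling none was higher and 3 were lower (Ptprcap, Plcg1 and Prkcq), with a median ratio of -0.60 in the gate and -0.23 in CD4 cells. Of 9 tissue residency genes Itgae was lower and none was higher, or 11.1% lower against 7.45% of all genes. Of 8 counted genes typical of dendritic epidermal T cells, the γδ T cells of mouse epidermis, 3 were higher (Xcl1, Il2rb and Gzmb) and 2 were lower (Itgae and Ctsw).
The receptor of the agonist, Tlr9, had 0 UMIs in gated cells of WT_LW and 4 in TLR9agonist_LW, or 0.362 CPM in the latter. The count of 0 in WT_LW allows up to 1.54 CPM, a level above that of the other library. Myd88, the adapter of TLR9 signalling, was at 28.3 and 28.5 CPM, a ratio of 0.30 (-0.08 to 0.70).

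**Figure D4:**
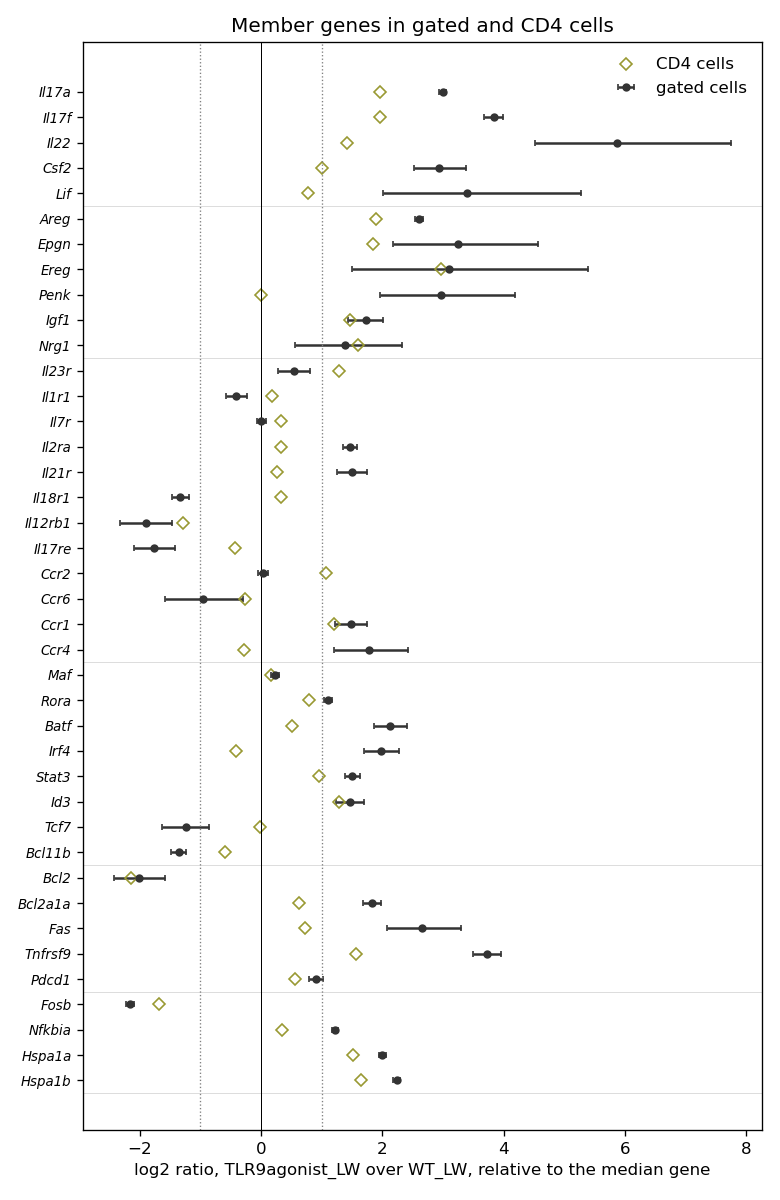
log2 ratio of CPM, TLR9agonist_LW over WT_LW, relative to the median gene (horizontal axis), for member genes by role from cytokines at the top to heat shock genes at the bottom. Filled points are gated cells with exact 95% counting intervals and open diamonds are CD4 cells of the same libraries. Dotted lines mark 2-fold. Il17a stands at 3.00 in gated cells and 1.96 in CD4 cells.

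The 10 highest ratios among genes with at least 200 UMIs and 10 in each library belonged to Serpinb2, Cxcl3, Sprr2d, S100a9, S100a8, Ccl21a, Igfbp2, 2310046K23Rik, Sprr1b and Hopx. Of these Hopx, a regulator of chromatin in differentiating cells, was at 121 CPM (108 to 136) in WT_LW against 1781 CPM (1756 to 1806) in TLR9agonist_LW and at 43.4 and 48.4 CPM in fibroblasts, and Cxcl3, a chemokine for neutrophils, stood at 16.2 and 517 CPM in gated cells and 12.9 and 87.7 CPM in fibroblasts. The other 8 included genes of keratinocytes, such as Sprr2d and Sprr1b, of neutrophils and keratinocytes, S100a8 and S100a9, and of lymphatic vessels, Ccl21a. S100a8 was at 64.5 and 1541 CPM in gated cells and 122 and 3086 CPM in fibroblasts, and its ratio in CD4 cells was 5.21. Ccl21a, at 16 and 1565 UMIs, kept 75 of the latter when predicted doublets were removed, and the log2 ratio of Ccl21a was then 0.66.
The 10 lowest ratios belonged to Tpsb2, Cma1, Cpm, Cpa3, Gm26532, Pik3cd, Fosb, Gm26870, Myo1f and Rasal3. Tpsb2, Cma1 and Cpa3 are proteases of mast cells, and all 5 mast cell markers were lower, with Cma1 at 393 and 57.5 CPM. Their summed share was 0 in the median cell of both libraries and up to 8.60% in 1 cell of WT_LW. In gated cells of 1500 to 5000 UMIs the log2 ratio of Cma1 was -0.17 and the log2 ratio of Cpa3 was 0.29. Pik3cd, a kinase of lymphocyte signalling, was at 94.5 and 16.8 CPM.

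Grouping the gated cells without the gate genes split them almost by library. Of 7 groups, 1 held 447 of the 490 cells of WT_LW and 14 of TLR9agonist_LW, and 2 others, of 664 and 411 cells, held no cell of WT_LW. Groups made up of 1 library may be that library rather than a kind of cell, so no type was named. Within TLR9agonist_LW, the group of 664 cells held Il17f at 4443 CPM, the group of 411 cells at 975 CPM and a group of 376 cells at 319 CPM. Il17a was at 12314, 8973 and 5972 CPM in them and Areg at 9435, 6172 and 2440 CPM, while Hspa1a was at 1867, 2390 and 9140 CPM. A pair of groups of 128 and 100 cells had a median of 14487 and 17964 UMIs, and in TLR9agonist_LW held Krt14 at 3857 and Col1a1 at 23211 CPM. These values describe groups that the same genes formed.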

How the data were processed

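Single cells of the wound centre were profiled with droplet 3′ libraries, 1 per group. For each barcode called as a cell, the authors deposited UMI counts by gene that were not normalized, and the file headers name Cell Ranger 4.0.0. Per the labels, fastp and Seurat were also used. The deposited gene and barcode lists give identifiers only. The submitters' processing notes list build mm9, while 27645 of 27998 gene identifiers were found in the GENCODE M21 names of GRCm38, so no gene positions are given apart from those of the RefSeq promoters. The labels name PBS as the control spray, while a legend of the study names a control oligonucleotide for WT_LW.

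The deposited cells held 99374045 UMIs in WT_LW and 132339022 in TLR9agonist_LW (12800 and 13751 barcodes). Gated cells were summed per library and expressed as CPM. Exact Poisson intervals were used for levels, Clopper-Pearson intervals for shares, and an exact interval given the total for ratios. All cover counting error only. Ratios were centred on the median gene with at least 50 UMIs. The centred ratio was tested on simulated data. Doublets were predicted from simulated pairs of cells and kept in the main values. For shares of cells with a UMI, each cell was thinned to 1500 UMIs, and shallower cells were left out (11 and 7 gated cells). Groups within the gate came from Leiden clustering (resolution 0.5, 1000 variable genes, 15 components, leidenalg 0.10.2, scanpy 1.11.5), with no correction for library. Named genes were markers and genes the study names for these cells, members of role lists (up to 6 by UMIs and those past 2-fold), the 10 highest and 10 lowest ratios, and 15 genes leading other T cells. Other genes named are list members. The cell rule and the lists were chosen with earlier results of these data known. 15 alternative settings were run, 13 planned and 2 added after seeing the data. Certain genes are not reported here. No per-sample column of another series was present.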

Additional observations from a re-analysis of the deposited data

How the results depend on the processing

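No paired analysis was possible because each group had 1 library and no result came from a test. Of 15 alternatives, 2 were added after seeing the data (leaving out cells whose barcode occurred in both libraries, and leaving out doublets together with cells holding RNA of other types). Not every value changes with every setting. The share of gated cells was higher in TLR9agonist_LW in the 10 alternatives that changed which cells were counted in it. Its log2 ratio moved most when cells were thinned to 1500 UMIs before gating, to 0.76 among cells kept and 0.89 among Cd3 cells, and with a marker sum of at least 3 it was 1.40 and 1.48. The number of genes past 2-fold lower in gated cells, and the number of genes past 2-fold higher in gated cells, also depended on the setting. The number of genes counted changed too, from 10286 in the main values, so these counts are not drawn from 1 set of genes. There were 340 higher and 263 lower of 3910 after thinning, and 646 higher of 7209 in gated cells of 1500 to 5000 UMIs. Among genes with at least 200 UMIs, a smaller set, there were 668 and 302. When ratios were not centred, 1529 of 10286 were lower. The ratios of Il17a, Il17f and Areg stayed past 2-fold in each setting that recomputed them.

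List medians that moved were the cytotoxic genes, at -0.022 with a marker sum of at least 3, and the checkpoint genes. The checkpoint genes were at 0.0067 with a marker sum of at least 1 and 0.071 without centring. The cell cycle genes moved to -0.76 with no limit on Mki67 and Top2a, and the Toll-like receptor pathway to -0.96 without centring. After thinning only 1 gene of that pathway was counted, at 1.87, so this value does not describe the list. Medians near 0 also took the other sign: type I interferon response and cytokine receptors in 6 alternatives each, lipid handling and early response in 3 each, cell cycle in 2 and homing receptors in 1. The Toll-like receptor pathway was at 0.21 with list genes of at least 10 UMIs. The cause was not tested. For 3 genes the sign changed. The log2 ratio of Xcl1 was -0.27 with a marker sum of at least 3 and -4.62 in cells of 1500 to 5000 UMIs, where the log2 ratio of Cpa3 was 0.29 and the log2 ratio of Rsad2 -0.16. Rsad2 was also at -0.83 after thinning and -0.67 without doublets and cells with other RNA. Besides genes named with their values in the text, Il18r1 was within 2-fold after thinning, S100a4 there and in 4 other settings, and Il2rb and Nfkbia without centring. Genes with few UMIs in WT_LW, such as Il22 and Lif, are limited by depth.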
